A study of Mus musculus with 10 samples.

Results

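Rn7sk, Rpph1, Rmrp, Gm26917, Malat1 and Neat1 are 6 noncoding RNA genes among the 46959 gene entries of a mouse total RNA sequencing table. They were picked by gene symbol, with their measured shares of the counts in view, so the shares are given as a description and without a test. All 6 were found in the table and all 6 passed the filter on low counts. Rn7sk held the largest mean share of all genes over the 10 libraries, 5.50%. Rpph1 ranked 3 with 2.11%, Gm26917 ranked 4 with 1.25%, Malat1 ranked 6 with 0.676% and Rmrp ranked 8 with 0.621%. Neat1, at 0.0478%, ranked 243, so by its rank it is not among the abundant RNAs of these libraries.

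The libraries came from mice aged 8 to 10 weeks and form 5 groups of 2. LPS_IL4_SAHA and LPS_IL4 are spleen cells depleted of CD43, which marks most leukocytes but not resting B cells, from 129-background animals named wt. Both groups spent 48 h in culture with 5 µg/ml of the bacterial product LPS and 20 ng/ml of the cytokine interleukin 4 (IL4), and the first group also received SAHA, an inhibitor of histone deacetylases, given as 200 nM in one label and 200 ng/ml in another. The growth protocol names KOKI and BLACK-6 control mice instead, and the design text leaves out IL4. The groups 2KO, deltaEmu and RAG2_deficient are uncultured cells from the femur, labelled B cells and C57BL6. The labels do not spell out 2KO; the design text names mice lacking the immunoglobulin heavy chain enhancers 5′Eµ and 3′RR, deltaEmu names Eµ alone, and wild-type femoral cells were not analysed here. RAG2 is one of the recombinase proteins that assemble antibody genes, without which B cells do not mature. Each library is a pool of RNA, from mice named by a pair of numbers (4_et_7, 6_et_8) in the spleen, and p-values measure only the spread between pools. Total counts per library lay between 17710154 and 25544275.

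A limit touches every comparison below. The count columns carry numbers only, and they were read by the sequencing index that ends each sample description. The number that opens each sample title gives the same sample for 2 columns and another sample for 8. Rag1, a recombinase gene of immature lymphocytes, lay at 0 to 0.0418 CPM (counts per 1000000, after scaling) in the columns read as spleen and at 141 to 920 CPM in those read as femoral. By the title numbers, the columns read as 2KO and deltaEmu, with 141 to 258 CPM of Rag1, would be the cultured spleen cells. Within the spleen, the titles place SAHA on the opposite libraries from the descriptions. If the titles are right, each sign in the SAHA comparison turns round.

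Rn7sk encodes 7SK RNA, which holds the elongation kinase P-TEFb in an inactive particle with the proteins Hexim1, Larp7 and Mepce. Rpph1 is the catalytic RNA of RNase P, which trims the leader from tRNA precursors, and Rmrp is the related RNA of RNase MRP, which cuts ribosomal RNA precursors. RNA polymerase III makes all of these, and they carry no long poly(A) tail. Malat1 is a long nuclear RNA of splicing speckles, and Neat1 is the scaffold RNA of paraspeckles; RNA polymerase II makes both. Gm26917 is an annotated long noncoding gene whose role is not stated here.

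The genes lie on 5 chromosomes (mm10/GRCm38, coordinates as deposited and identical in GENCODE vM21). Rn7sk is a 331-base gene at chr9:78175303-78175633 on the minus strand. Rmrp spans 271 bases at chr4:43492788-43493058, minus strand, and 159 of its bases are overlapped on the other strand by Ccdc107. Rpph1 spans 319 bases at chr14:50807449-50807767, minus strand, and its start lies 178 bases from that of Parp2, a DNA repair gene read the other way. Gm26917 spans 3329 bases at chr17:39843013-39846341, plus strand, and ends 11 bases before Rn18s-rs5, an 18S ribosomal RNA entry. Malat1 covers 6983 bases at chr19:5795690-5802672 and Neat1 covers 20771 bases at chr19:5824708-5845478. Both are on the minus strand, 22035 bases apart. The Neat1 entry covers the long form, and the short form inside it cannot be told apart by gene counts. The 4 genes Gm26917 (69.1%), Rpph1 (67.1%), Rmrp (64.2%) and Rn7sk (58.0%) have more G and C than Neat1 (47.3%) and Malat1 (42.5%). No source used here gives the strand setting of the counting or how it handled multiply mapped reads, so counts of genes with near-identical copies or an overlapping partner are uncertain.

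The RNAs that RNA polymerase III makes are shown because Rn7sk leads the table by counts and all 3 are short. The first 110 bases of Rn7sk (chr9:78175524-78175633, minus strand, GENCODE vM21) hold all 3 GATC copies of the transcript, in capitals; GAUC in the RNA is the motif that the HEXIM proteins bind.
Rn7sk: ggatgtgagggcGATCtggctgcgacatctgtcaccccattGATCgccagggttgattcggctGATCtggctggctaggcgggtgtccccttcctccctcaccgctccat
Rmrp is given whole and Rpph1 by its first 300 bases (chr14:50807468-50807767), since both are related ribozyme RNAs. The longest run of letters they share, 9 bases, is in capitals, and a global alignment put identical bases in 51.8% of its columns.
Rmrp: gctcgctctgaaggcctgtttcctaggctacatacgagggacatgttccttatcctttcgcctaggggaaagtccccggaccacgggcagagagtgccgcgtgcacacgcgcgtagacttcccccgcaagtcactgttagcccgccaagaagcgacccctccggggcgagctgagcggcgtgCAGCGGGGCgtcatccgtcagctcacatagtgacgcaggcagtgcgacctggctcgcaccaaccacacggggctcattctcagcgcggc
Rpph1: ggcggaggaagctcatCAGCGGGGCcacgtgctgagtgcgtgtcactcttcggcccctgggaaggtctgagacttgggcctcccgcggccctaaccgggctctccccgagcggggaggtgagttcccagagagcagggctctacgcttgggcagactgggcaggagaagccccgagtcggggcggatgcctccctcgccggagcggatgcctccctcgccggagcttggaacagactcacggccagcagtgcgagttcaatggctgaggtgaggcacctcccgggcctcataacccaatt

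Of the 6 genes, the RefSeq promoter table (GRCm38.p6) held a window for 1, Malat1, in which neither TATAA, nor the GC box letters GGGCGG, nor the letters CCAAT were found on either strand. The window of Parp2 (chr14:50807666-50807965, plus strand) covers the space between the Parp2 and Rpph1 starts and the first 102 bases of Rpph1, read backwards. It held TATAA once, 29 bases before the Rpph1 start, and GGGCGG once as its reverse complement, across that start; both are in capitals. CCAAT was not found in it.
Parp2 and Rpph1 window: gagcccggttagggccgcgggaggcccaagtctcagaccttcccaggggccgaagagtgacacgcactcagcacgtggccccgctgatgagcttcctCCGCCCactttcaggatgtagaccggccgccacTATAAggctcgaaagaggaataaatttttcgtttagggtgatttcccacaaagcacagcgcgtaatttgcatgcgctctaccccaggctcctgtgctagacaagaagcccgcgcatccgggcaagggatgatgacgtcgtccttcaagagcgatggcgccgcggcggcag
Over 27025 promoters of the same length, counting both strands, TATAA was in 25.5%, GGGCGG in 35.9% and CCAAT in 37.9%.

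The 6 genes together took between 7.45% and 17.2% of a library. Their sum was 7.45% and 8.47% in LPS_IL4_SAHA, against 8.95% and 7.89% in LPS_IL4. In the femoral groups it was 11.8% and 8.65% in 2KO, 8.48% and 13.4% in deltaEmu, and 17.2% and 9.79% in RAG2_deficient. Shares within a library compete, so a high Rn7sk share lowers those of all other genes, and levels between groups are compared below on the scaled counts.

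Values of a group follow the order of its pools as the descriptions number them. The spleen groups each have pools 4_et_7 and 6_et_8, while 2KO has pools 1 and 3, deltaEmu has pools 5 and 7, and RAG2_deficient has pools 2 and 3. Rn7sk took 3.31% and 3.8% of the counts in the 2 LPS_IL4_SAHA libraries, against 4.35% and 1.33% in LPS_IL4. In the femur it took 6.94% and 4.77% in 2KO, 4.51% and 8.39% in deltaEmu, and 11.8% and 5.83% in RAG2_deficient. Every spleen library lay below each femoral library, with 4.35% the highest spleen and 4.51% the lowest femoral value, so the margin is thin. It held for the shares only: on the scaled counts, spleen and femoral libraries overlapped. RAG2_deficient pool 2 was the highest and LPS_IL4 pool 6_et_8 the lowest, 8.87-fold apart. Per length, the median was 107400 RPKM (counts per kilobase of gene and per 1000000 counts of the library) in spleen and 193000 RPKM in femoral libraries.

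Rpph1 took 2.09% and 2.63% in LPS_IL4_SAHA, against 2.65% and 1.11% in LPS_IL4. In femoral libraries it took 1.97% and 1.44% in 2KO, 1.67% and 2.30% in deltaEmu, and 3.32% and 1.88% in RAG2_deficient. Unlike Rn7sk, the spleen and femoral ranges overlapped, and the median per length was 74030 RPKM in spleen and 60400 RPKM in femoral libraries.

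Rmrp varied least of the 6, 2.38-fold from its lowest to its highest library. It took 0.615% and 0.734% in LPS_IL4_SAHA, against 0.817% and 0.392% in LPS_IL4. In the femur it held 0.685% and 0.557% in 2KO, 0.498% and 0.711% in deltaEmu, and 0.842% and 0.354% in RAG2_deficient. The 5 group means lay between 0.598% and 0.675%, a narrower span than the 2 libraries of LPS_IL4 or of RAG2_deficient cover between them.

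Gm26917 stood at 0.987% and 1.05% in LPS_IL4_SAHA, against 0.791% and 4.48% in LPS_IL4. It stood at 1.27% and 0.926% in 2KO, 0.905% and 0.944% in deltaEmu, and 0.576% and 0.536% in RAG2_deficient. LPS_IL4 pool 6_et_8 was 5.66-fold above the other pool of its group, while the remaining 9 libraries lay at or below 1.27%. RAG2_deficient had the lowest values of the 5 groups. The neighbouring entry Gm42418, which lies within Rn18s-rs5 on the other strand, was at 0.486% and 0.501% in LPS_IL4_SAHA, against 0.371% and 0.490% in LPS_IL4. Gm42418 is annotated as long noncoding too, but was set aside with the ribosomal RNA genes in an alternative scaling. The part of ribosomal RNA in the counts of Gm26917 and Gm42418 was not tested.

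Malat1 took 0.438% and 0.252% in LPS_IL4_SAHA, against 0.344% and 0.576% in LPS_IL4. It held 0.820% and 0.865% in 2KO, 0.816% and 0.926% in deltaEmu, and 0.608% and 1.11% in RAG2_deficient. Again each femoral library was above every spleen library. Neat1 took 0.00527% and 0.00421% in LPS_IL4_SAHA, against 0.00467% and 0.00710% in LPS_IL4. It held 0.0761% and 0.0911% in 2KO, 0.0847% and 0.0903% in deltaEmu, and 0.0429% and 0.0716% in RAG2_deficient. The lowest femoral value was well clear of the highest spleen value. Per length, the medians were 560.0 RPKM of Malat1 and 2.39 RPKM of Neat1 in spleen, and 1206 RPKM of Malat1 and 38.7 RPKM of Neat1 in femoral libraries.

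**Figure D1:**
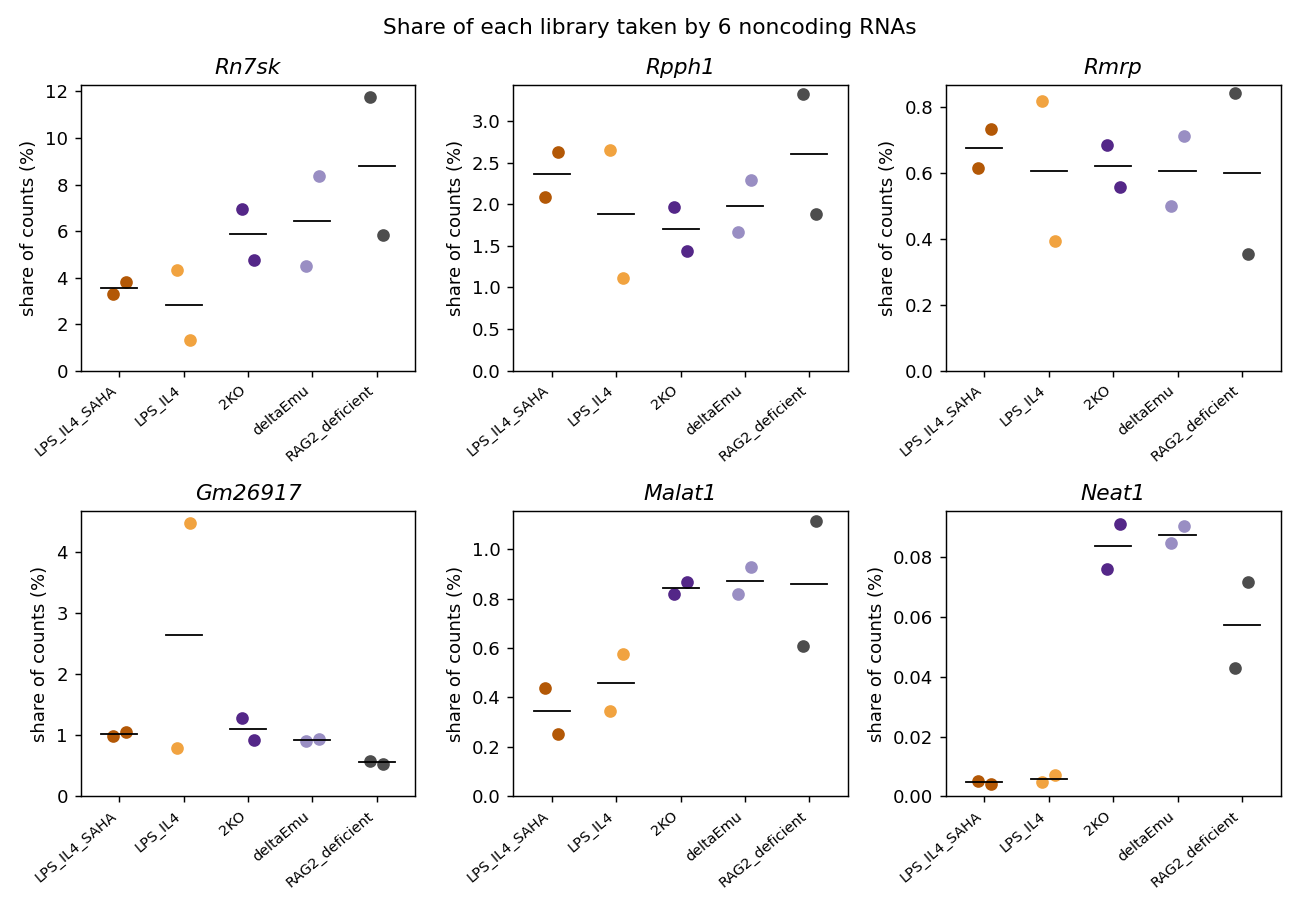
Share of the gene counts of each library (%, vertical axes from 0) taken by each of the 6 RNAs, 1 point per library, with the mean of the 2 libraries of a group as a line. Neat1 and Malat1 are lower in both spleen groups than in the femoral groups, and Gm26917 reaches 4.48% in 1 LPS_IL4 library.

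By counting error alone these shares are precise. The 95% Wilson interval reached at most 0.784% of the share to either side for 5 of the genes, and at most 6.39% of it for Neat1, which had 943 to 18975 counts. Such intervals cover counting error only. The spread between the libraries of a group was far wider: the higher library exceeded the lower by 3.28-fold for Rn7sk in LPS_IL4, 2.02-fold in RAG2_deficient, 1.86-fold in deltaEmu, 1.46-fold in 2KO and 1.15-fold in LPS_IL4_SAHA.

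LPS_IL4 pool 6_et_8 and RAG2_deficient pool 3 stood apart from the partner of their group. Protein-coding genes shorter than 1000 exonic bases took 5.31% of protein-coding counts in LPS_IL4 pool 6_et_8 and 6.38% in RAG2_deficient pool 3, against 7.55% to 11.9% in the other 8 libraries. Genes longer than 8000 bases took 20.1% in that LPS_IL4 pool, against 10.9% to 13.5% in the other spleen libraries, and 25.5% in that RAG2_deficient pool, against 17.2% to 20.9% in the other femoral ones. The same 2 libraries had less Rn7sk, Rpph1 and Rmrp, and more Malat1 and Neat1, than their partners. Rmrp in RAG2_deficient pool 2 was 2.38-fold its level in pool 3, and Rn7sk 2.02-fold. Malat1 in RAG2_deficient pool 3 was 1.83-fold its level in pool 2. The part of this length difference in the members' values was not tested.

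**Figure D2:**
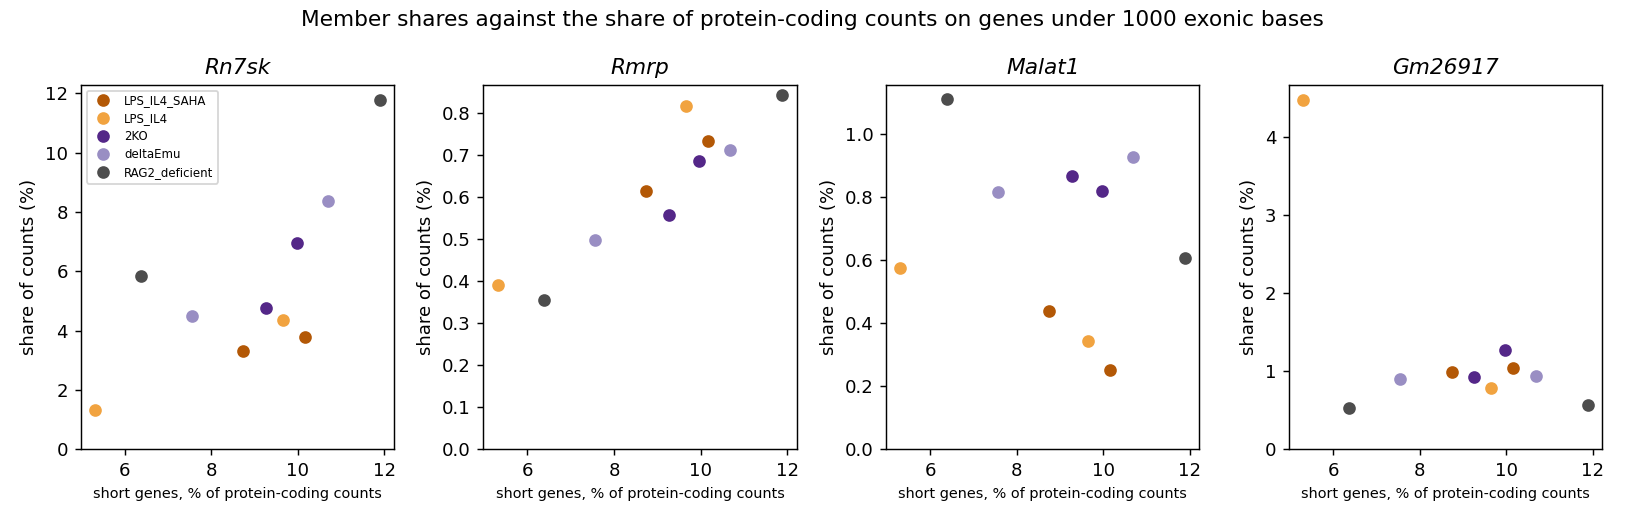
Share of counts (%) of 4 of the RNAs against the share of protein-coding counts on genes under 1000 exonic bases (%), 1 point per library, coloured by group. The 2 libraries under 7% on the horizontal axis have the 2 lowest Rmrp shares, 0.392% and 0.354%.

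Ratios between members within a library do not depend on the library total. Rn7sk had 1.58 and 1.44 counts per Rpph1 count in LPS_IL4_SAHA, against 1.64 and 1.19 in LPS_IL4. In the femur this ratio was 3.52 and 3.31 in 2KO, 2.70 and 3.65 in deltaEmu, and 3.54 and 3.10 in RAG2_deficient. Both genes are near the same length, and the ranges did not overlap: 1.19 to 1.64 in spleen and 2.70 to 3.65 in femoral libraries. Rn7sk per Rmrp split the same way, 3.38 to 5.38 in spleen and 8.57 to 16.5 in femoral libraries, with RAG2_deficient highest at 14.0 and 16.5. Rpph1 per Rmrp did not split, with 2.84 to 3.58 in spleen and 2.59 to 5.31 in femoral libraries. Rn7sk per Malat1 overlapped as well, with 2.30 to 15.1 in spleen and 5.24 to 19.4 in femoral libraries.

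Malat1 had 83.1 and 59.8 counts per Neat1 count in LPS_IL4_SAHA, against 73.7 and 81.1 in LPS_IL4. It had 10.8 and 9.49 in 2KO, 9.64 and 10.2 in deltaEmu, and 14.2 and 15.5 in RAG2_deficient. The spleen libraries all lay above the femoral ones, and both RAG2_deficient libraries lay above the other 4 femoral ones. The 2 libraries poor in short genes sat beside their partners in this ratio of long RNAs.

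**Figure D3:**
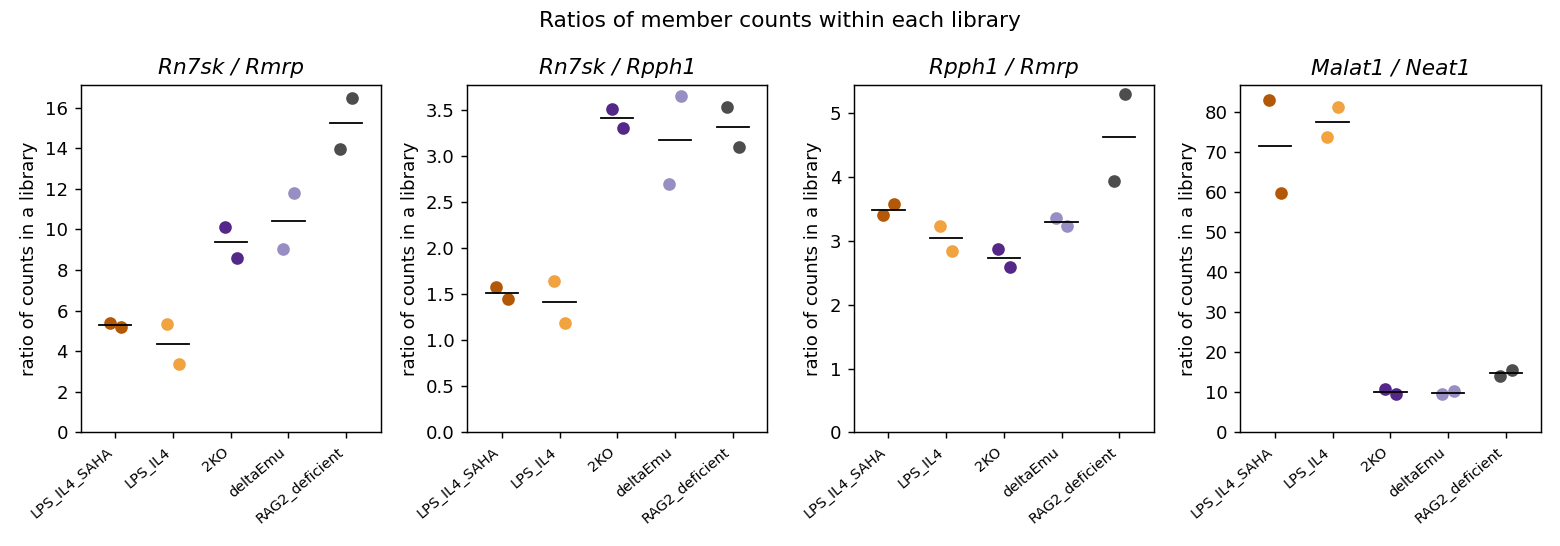
Ratio of the counts of 2 members within each library (vertical axes from 0), 1 point per library and a line at the group mean. Rn7sk per Rpph1 is 1.19 to 1.64 in spleen and 2.70 to 3.65 in femoral libraries, and Malat1 per Neat1 is 59.8 to 83.1 in spleen and 9.49 to 15.5 in femoral libraries.

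Differences between groups were tested with edgeR's quasi-likelihood test over all genes, with Benjamini-Hochberg adjustment, and genes with an adjusted p below 0.05 are the called ones. Each log2 fold change is the first-named group over the second, ± SE, with its 95% interval. All adjusted p-values below come from this test unless DESeq2 is named.

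With SAHA, none of the 6 genes was called, and neither was any of the 13913 genes tested (0%), nor by DESeq2, while 187 genes had an unadjusted p under 0.05 by edgeR and 264 by DESeq2. Rn7sk averaged 38900 ± 5080 CPM in LPS_IL4_SAHA and 30100 ± 24300 CPM in LPS_IL4 (SD, n = 2 each), a log2 fold change of 0.33 ± 0.67 with an interval of -1.33 to 2.0. Gm26917 had the largest estimate, -1.28 ± 0.77, with an interval of -3.18 to 0.63. Malat1 was at -0.36 ± 0.42, Neat1 at -0.25 ± 0.25, Rmrp at 0.18 ± 0.48 and Rpph1 at 0.34 ± 0.57. The narrowest interval, that of Neat1, ran from -0.87 to 0.36, so changes within those bounds could not be told from none.

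The outcome turned on which LPS_IL4 pool was left out. Such a fit has 1 library in that group, so only the estimates are given here. Without LPS_IL4 pool 4_et_7 they were 1.58 for Rn7sk, 1.24 for Rpph1, 0.94 for Rmrp and -1.98 for Gm26917. The pool then left, 6_et_8, is the one with the smallest share of short genes, 5.31%. Without LPS_IL4 pool 6_et_8, the estimates of these 4 genes changed sign, to -0.30, -0.17, -0.28 and 0.35 in that order.

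In the femoral libraries no member was called between any 2 groups. Between 2KO and deltaEmu 612 of 16538 genes were called (3.70%). Of these, 296 had more counts in 2KO and 316 had fewer. Scaling without immunoglobulin, mitochondrial and ribosomal RNA genes and the members gave 290 and 170. The 6 estimates lay between -0.28 ± 0.58 for Rpph1 and 0.20 ± 0.41 for Gm26917. Rn7sk averaged 55200 ± 15600 CPM in 2KO and 64200 ± 29200 CPM in deltaEmu (SD, n = 2 each), a log2 fold change of -0.21 ± 0.77 with an interval of -2.0 to 1.59. Neat1, with the narrowest interval, was at -0.13 ± 0.26 (-0.73 to 0.47). These intervals leave room for changes of the size named at their ends.

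Between 2KO and RAG2_deficient 713 genes were called (4.31%). Gm26917 averaged 10400 ± 2530 CPM in 2KO and 5390 ± 1040 CPM in RAG2_deficient (SD, n = 2 each), and its libraries did not overlap. Its log2 fold change was 0.92 ± 0.42, with an interval of -0.05 to 1.89 and an adjusted p of 0.284. DESeq2 called it (adjusted p = 0.00635), the only one of 11 alternative settings that did. Neat1 averaged 785 ± 84.3 CPM in 2KO and 539 ± 116 CPM in RAG2_deficient, also without overlap, at a log2 fold change of 0.51 ± 0.26 (adjusted p = 0.343). With 2 libraries against 2, a lack of overlap says little: the smallest p of an exact permutation test is 0.333. Rn7sk was at -0.69 ± 0.78 and Rpph1 at -0.71 ± 0.58, with both RAG2_deficient libraries far from each other. Malat1 (-0.06 ± 0.41) and Rmrp (-0.06 ± 0.55) were near 0.

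Between deltaEmu and RAG2_deficient 1622 genes were called (9.81%). The comparison shares its RAG2_deficient libraries with the one before, so the values stand side by side only. Gm26917 averaged 9140 ± 569 CPM in deltaEmu and 5390 ± 1040 CPM in RAG2_deficient (SD, n = 2 each), a log2 fold change of 0.72 ± 0.42 with an adjusted p of 0.324, and of 0.0341 by DESeq2. Neat1 averaged 866 ± 67.5 CPM in deltaEmu and 539 ± 116 CPM in RAG2_deficient, a log2 fold change of 0.64 ± 0.26 with an interval of 0.03 to 1.25 and an adjusted p of 0.174. Leaving out RAG2_deficient pool 3, which leaves 1 library in that group, gave Neat1 an estimate of 0.89. Over 11 alternatives its estimates lay between 0.44 and 0.89. Neither gene's libraries overlapped between these groups, but neither passed the test. Rn7sk was at -0.49 ± 0.78, Rpph1 at -0.43 ± 0.58, Malat1 at 0.06 ± 0.41 and Rmrp at -0.04 ± 0.55.

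Markers of other cell types were unequal between these femoral groups. The summed level of 10 neutrophil markers was 6990 to 8530 CPM in 2KO, 14300 to 16900 CPM in deltaEmu and 5020 to 6640 CPM in RAG2_deficient. That of 10 erythroid markers was 10700 to 15700 CPM in 2KO, 2630 to 2760 CPM in deltaEmu and 3200 to 5860 CPM in RAG2_deficient. For 8 stromal markers it was 1220 to 1710 CPM in 2KO, 2370 to 2460 CPM in deltaEmu and 7230 to 8230 CPM in RAG2_deficient. The 10 pro-B markers were at 727 to 1190 CPM in 2KO, 842 to 1270 CPM in deltaEmu and 2960 to 3280 CPM in RAG2_deficient. The 10 mature B markers were at 445 to 532 CPM in 2KO, 854 to 987 CPM in deltaEmu and 217 to 276 CPM in RAG2_deficient. By the test, deltaEmu exceeded RAG2_deficient in 7 of the 10 mature B and 4 of the 10 neutrophil markers, and fell below it in 5 of the 10 pro-B, all 8 stromal and 1 of the 10 erythroid markers. In 2KO against RAG2_deficient, 5 erythroid and 2 mature B markers were called higher, 6 stromal and 5 pro-B markers lower, and no neutrophil marker. The mature B markers called there were Cd74 (1.21 ± 0.21) and H2-Aa (1.05 ± 0.20), though the median of the 10 was -0.49. H2-Ab1 was above 0, and Ms4a1, Cr2, Fcer2a, Cd22, Bank1, Cd83 and Cd40 were below 0, none called. Cd74, H2-Aa and H2-Ab1 averaged 198, 148 and 120 CPM in 2KO, so they weigh most in its summed level. In 2KO against deltaEmu, 9 erythroid markers were called higher, 4 mature B and 1 stromal marker lower, and no neutrophil or pro-B marker. The femoral libraries thus hold RNA of cells other than the labelled B cells, and the part of this in the values of Gm26917 and Neat1 was not tested. In such bulk samples fewer cells of a type and less RNA per cell cannot be told apart.

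Spleen and femoral libraries differ in organ, culture, stimulation, strain and genotype together, which cannot be told apart, and 12488 of 17483 genes were called (71.4%), with a median log2 fold change of -0.20 over all genes. The sets also differ in Xist, the RNA that silences an X chromosome in female cells, which averaged 0.0719 ± 0.0884 CPM in spleen (SD, n = 4) and 1200 ± 782 CPM in femoral libraries (SD, n = 6). The part of this in the values below was not tested. Against that background, Neat1 and Malat1 were lower and Gm26917 higher in spleen, and Rn7sk, Rmrp and Rpph1 were not called. Neat1 averaged 55.8 ± 9.65 CPM in spleen (SD, n = 4) and 730.0 ± 168 CPM in femoral libraries (SD, n = 6). That is a log2 fold change of -3.68 ± 0.19 (12.9-fold lower in spleen), with an interval of -4.11 to -3.26 and an adjusted p of 1.44e-07. All 4 spleen libraries were below all 6 femoral ones, and each of 15 alternatives called it, at log2 values from -3.75 to -3.53.

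Malat1 averaged 4210 ± 1200 CPM in spleen (SD, n = 4) and 8200 ± 1160 CPM in femoral libraries (SD, n = 6). Its log2 fold change was -0.97 ± 0.25 (adjusted p = 0.00651), and all 15 alternatives called it, at values from -1.17 to -0.80. Both RNAs were called lower in spleen in every one of these settings, and the counts of Malat1 per Neat1 count given above were higher there.

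Gm26917 averaged 18600 ± 16700 CPM in spleen (SD, n = 4) and 8300 ± 2640 CPM in femoral libraries (SD, n = 6), a log2 fold change of 1.09 ± 0.39 (adjusted p = 0.0307). The call was made in 9 of 15 alternatives and lost when any of 5 libraries was left out. The size rested on 1 of them: without LPS_IL4 pool 6_et_8 the value was 0.40 with an adjusted p of 0.143. A fit without 1 library has 1 library left in that group, which is assumed to vary like the other groups. Spleen and femoral libraries overlapped. Leaving out 2KO pool 3, deltaEmu pool 7 or either LPS_IL4_SAHA pool gave values of 1.06 to 1.13 with adjusted p-values of 0.0546 to 0.0786. The adjacent Gm42418 was also higher in spleen, 4890 ± 669 CPM there and 1590 ± 852 CPM in femoral libraries, a log2 fold change of 1.69 ± 0.32 (adjusted p = 0.000906).

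Rn7sk averaged 34500 ± 15200 CPM in spleen (SD, n = 4) and 69100 ± 31700 CPM in femoral libraries (SD, n = 6), and the libraries overlapped. The log2 fold change of -0.99 ± 0.47 had an interval of -2.04 to 0.07 and an adjusted p of 0.0846. Of 15 alternatives, 4 called it, and all 15 kept the negative sign. Over these its adjusted p ran from 0.000136 to 0.253, and DESeq2 gave 0.0175. Leaving out LPS_IL4 pool 4_et_7 gave a log2 fold change of -1.59, and leaving out the other pool of that group, 6_et_8, gave -0.55. Each of these fits has 1 library in that group, so only the estimates are given. Rmrp was at 0.20 ± 0.35 (adjusted p = 0.627) and Rpph1 at 0.17 ± 0.36 (adjusted p = 0.696). Their intervals, -0.59 to 1.00 and -0.65 to 0.98, leave room for up to 1.99-fold and 1.98-fold higher levels in spleen. Parp2, which starts next to Rpph1, was called higher in spleen, 69.9 ± 5.35 CPM there and 42.4 ± 5.04 CPM in femoral libraries, at a log2 fold change of 0.73 ± 0.11 (adjusted p = 0.00021).

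**Figure D4:**
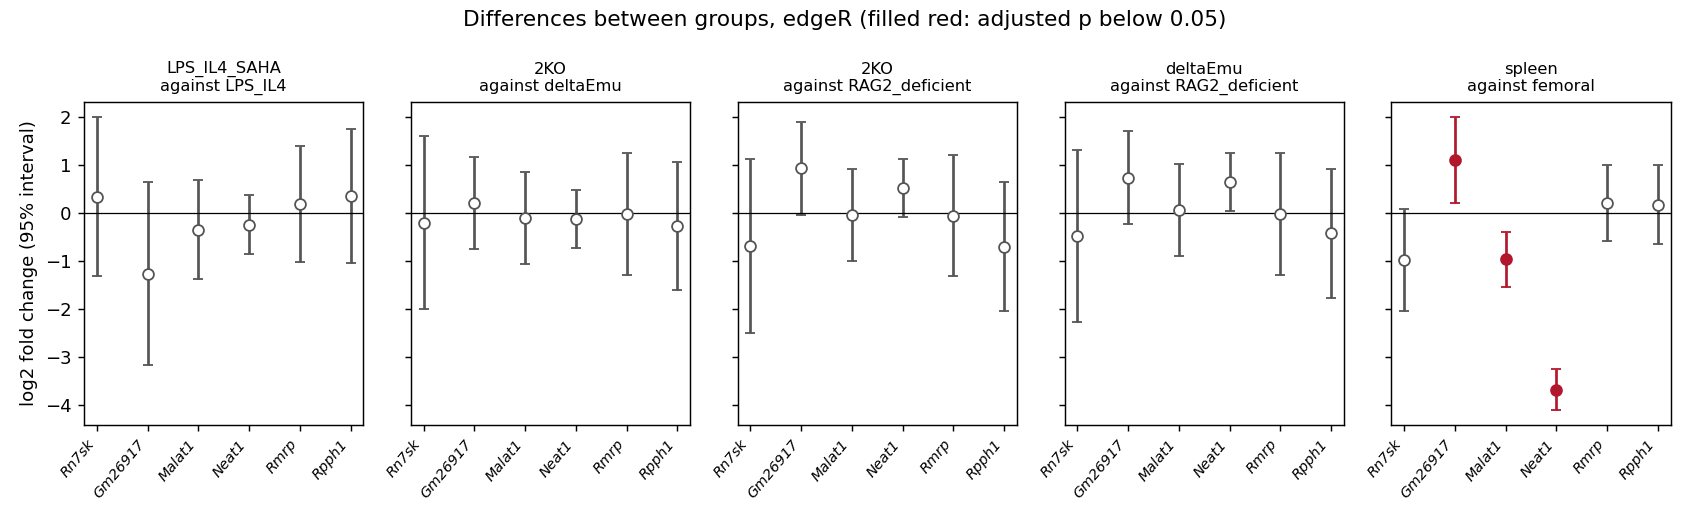
Log2 fold change of each RNA in the 5 comparisons, first-named group over the second, with the 95% interval from edgeR; filled red points have an adjusted p below 0.05. Only Neat1 (-3.68), Malat1 (-0.97) and Gm26917 (1.09), all in spleen against femoral, are called.

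Marker genes of the other marrow lineages were near 0 in spleen. The summed level of the 10 neutrophil markers was 0.451 to 0.915 CPM in spleen and 5020 to 16900 CPM in femoral libraries, with Ly6g at 0 in all spleen libraries. The 10 erythroid markers summed to 1.93 to 5.43 CPM in spleen and 2630 to 15700 CPM in femoral libraries, with Car1 at 0 in all spleen libraries. For the 8 stromal markers the sums were 0.0402 to 0.161 CPM in spleen and 1220 to 8230 CPM in femoral libraries, with Col3a1, Dcn and Lum at 0 in spleen. The 10 mature B markers summed to 4940 to 6880 CPM in spleen and 217 to 987 CPM in femoral libraries. The 10 pro-B markers summed to 1170 to 1520 CPM in spleen and 727 to 3280 CPM in femoral libraries. Their part in the Neat1, Malat1 and Rn7sk values was not tested.

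The proteins that work with these RNAs were followed as lists. For the 7SK particle and P-TEFb, spleen exceeded femoral libraries in 5 of 10 genes by the test and fell below them in 1, with a median log2 fold change of 0.31. Larp7, which binds the 3′ end of 7SK, averaged 81.4 ± 7.92 CPM in spleen and 51.4 ± 2.79 CPM in femoral libraries (SD, n = 4 and n = 6), a log2 fold change of 0.66 ± 0.11 (adjusted p = 0.000316). The helicase Ddx21 had the largest value, 1.97 ± 0.13 (adjusted p = 7.51e-07), and the cyclin gene Ccnt2 was the one called lower, -0.52 ± 0.18 (adjusted p = 0.0267), a call made in 8 of 15 alternatives and in 3 of the 10 that leave out 1 library. Hexim1 (0.28 ± 0.13), the capping enzyme gene Mepce (0.23 ± 0.13) and the kinase gene Cdk9 (0.21 ± 0.10) were not called.

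Of 11 protein genes of RNase P and RNase MRP, 10 were called higher in spleen and none lower, with a median of 1.73. The large subunit gene Pop1 was at 1.73 ± 0.10 (adjusted p = 2.45e-07) and Rpp40 at 1.95 ± 0.13 (adjusted p = 6.87e-07), while Rpp21 was not called. The RNA partners Rpph1 and Rmrp, as above, were not called. Of the 11 RNA polymerase III subunit genes, 10 were also called higher, and none was called lower, with a median of 0.75. Polr3g averaged 31.9 ± 3.1 CPM in spleen and 10.4 ± 1.26 CPM in femoral libraries (SD, n = 4 and n = 6), a log2 fold change of 1.62 ± 0.12 (adjusted p = 1.52e-06). Its paralog Polr3gl, which takes the same place in the enzyme, was at -0.47 ± 0.23 and was not called.

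Among 18 genes of RNA polymerase III initiation factors and their repressor Maf1, 9 were called higher and 2 lower. The SNAPc subunit gene Snapc4, which serves genes with promoters of the Rn7sk kind, was at 0.96 ± 0.11 (adjusted p = 2.61e-05). Brf1, which serves tRNA genes, was lower at -0.42 ± 0.11 (adjusted p = 0.00563). The other gene called lower, Snapc3, is also a SNAPc subunit gene, at -0.50 ± 0.17 (adjusted p = 0.0246), a call made in 9 of 15 alternatives. Gtf3c5 (0.58 ± 0.12), Gtf3c6 (0.51 ± 0.13) and Gtf3c3 (0.28 ± 0.11) were among those called higher. For small RNA processing and La, 7 of 9 tested genes were called higher and none lower, led by Elac2, the tRNA 3′ endonuclease gene, at 1.68 ± 0.11 (adjusted p = 7.43e-07).

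For paraspeckle proteins, 6 of the 11 tested passed as higher in spleen and 1 as lower, with a median of 0.41, opposite in sign to Neat1. The core gene Nono averaged 485 ± 49.6 CPM in spleen and 253 ± 26.9 CPM in femoral libraries (SD, n = 4 and n = 6), a log2 fold change of 0.94 ± 0.12 (adjusted p = 9.03e-05). The chromatin remodeller gene Smarca4 was lower at -1.05 ± 0.17 (adjusted p = 0.000395), and Sfpq (0.22 ± 0.18) and Pspc1 (0.32 ± 0.13) were not called. Of 12 nuclear speckle and splicing genes, 8 were called higher and none lower, with Rnps1 at 1.85 ± 0.15 (adjusted p = 2.38e-06) and the speckle scaffold gene Srrm2 at 0.02 ± 0.40. Across the 17483 genes of this comparison, 5343 passed as higher in spleen and 7145 as lower, 71.4% in either direction. A high share of calls in either direction is therefore not particular to the lists. Their direction differed: each of these protein lists had more higher than lower calls, while all genes together had more lower ones. That difference in direction was not tested.

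**Figure D5:**
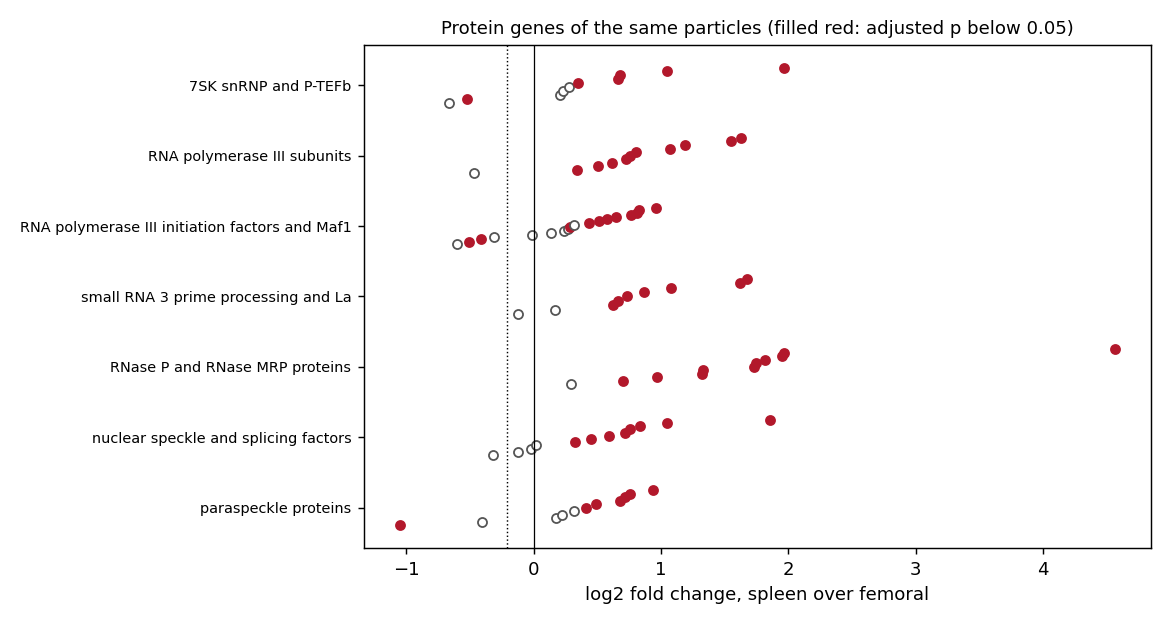
Log2 fold change, spleen over femoral, of the tested genes of 7 protein lists, 1 point per gene; filled red points have an adjusted p below 0.05, and the dotted line is the median of all genes (-0.20). In the list of RNase P and RNase MRP proteins 10 of 11 genes are called higher.

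In the other comparisons, calls over all genes were also few: 0% with SAHA, 3.70% for 2KO against deltaEmu, 4.31% for 2KO against RAG2_deficient and 9.81% for deltaEmu against RAG2_deficient. None of these protein genes was called with SAHA or in 2KO against RAG2_deficient, 1 was in 2KO against deltaEmu and 3 were in deltaEmu against RAG2_deficient. Pop4, a protein gene of RNase P and RNase MRP, was at 19.5 and 18.6 CPM in 2KO, against 11.1 and 9.82 CPM in deltaEmu, and the log2 fold change was 0.88 ± 0.18 (adjusted p = 0.0452). RAG2_deficient libraries had 21.6 and 17.9 CPM of Pop4, and deltaEmu against RAG2_deficient gave -0.96 ± 0.18 (adjusted p = 0.0189). Hexim1 was at 60.0 and 53.1 CPM in deltaEmu, against 35.5 and 25.7 CPM in RAG2_deficient, at 0.85 ± 0.19 (adjusted p = 0.0289). Snapc3 was at 28.9 and 29.6 CPM in deltaEmu, against 42.7 and 61.7 CPM in RAG2_deficient, at -0.88 ± 0.21 (adjusted p = 0.0404). No library of one group overlapped the other in these 4 cases, which says little by itself with 2 libraries against 2. Mepce, which was not called (adjusted p = 0.968), did not overlap between 2KO and deltaEmu either. The 4 calls depended on the setting: of 11 alternatives, 6 called Pop4 in the first comparison and 9 in the second, 7 called Hexim1 and 5 called Snapc3.

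Among other abundant or structured noncoding RNAs, 2 of 18 tested were called higher and 3 lower in spleen. Over all 17483 genes tested in that comparison, 5343 were called higher and 7145 lower (71.4% in either direction). Gm42418 and the small nucleolar RNA gene Rnu73b (0.73 ± 0.20) were higher. The U1 gene Rnu1a1 (-1.30 ± 0.41), the U11 gene Rnu11 (-1.24 ± 0.41) and the U12 gene Rnu12 (-1.23 ± 0.45) were lower. Leaving out 1 library at a time, Rnu1a1 and Rnu11 were called in 6 of 10 fits and Rnu12 in 4, and over 15 alternatives their values ran from -1.86 to -0.85, -1.63 to -0.87 and -1.94 to -0.75 in that order. For the long noncoding RNAs, 10 of 19 tested were called higher and 7 lower. Mir155hg, the host gene of the activation-linked miR-155, was at 5.92 ± 0.22 (adjusted p = 2.22e-08), Xist, given above, was called lower (adjusted p = 3.78e-08), and the nuclear RNA gene Firre was at -2.83 ± 0.15 (adjusted p = 1.86e-07). Long noncoding RNAs as a list therefore moved both ways, with Neat1 and Malat1 on the lower side. None of either list was called in the other 4 comparisons, where the calls over all genes ran from 0 to 1622 (0% to 9.81%).

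In the order of mean share among noncoding genes, the mitochondrial ribosomal RNA mt-Rnr2 (2.41%) stood between Rn7sk and Rpph1. Gm42418 (0.283%) came next below Rmrp. Gm24514 (0.0480%) stood just above Neat1 and the next gene of noncoding type below it was Cct6a (0.0441%), annotated as a processed transcript.

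After centring the log2 levels within spleen and within femoral libraries, the genes whose pattern over the 10 libraries was most like that of each member were found among 9305 genes with at least 10 CPM on average. Pearson's r is a description here, and the libraries share the length difference described above. Rn7sk was closest to Scarna13 (r = 0.992), Gm22442 (r = 0.988) and the ribosomal protein gene Rps14 (r = 0.987), and Rpph1 to Crip1 (r = 0.990), Rn7sk (r = 0.984) and Rps14 (r = 0.982). Rmrp was closest to Snhg12 (r = 0.994), Rps29 (r = 0.992) and Rpl32 (r = 0.991). For Malat1 the closest were Alg10b (r = 0.968), Fam179b (r = 0.961) and Slx4ip (r = 0.952). For Neat1 they were Atp10d (r = 0.960), Sgms1 (r = 0.953) and Galc (r = 0.949), and genes close to Gm26917 included Cln6 (r = 0.965) and Bzrap1 (r = 0.953). The lengths of the genes near Rmrp, 1626, 693 and 963 bases, lay below those near Neat1, 7848, 10299 and 3822 bases.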

How the data were processed

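The authors deposited a table of raw counts. It has 46959 gene entries and 100 control entries (spiked sequences, all at 0, and phiX174), and the controls were left out. Per the submitters' processing notes, STAR 2.4.0a and featureCounts of Subread 1.4.6-p1 were used on mm10/GRCm38, and per the labels' protocols the libraries were stranded total RNA. The annotation release is not given in the sources used here; all 6 genes had the coordinates of GENCODE vM21.

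Shares are counts over the summed gene counts of a library. Tests used edgeR 4.0.16 in R 4.3.3 (filterByExpr with a minimum count of 10, TMM, quasi-likelihood F test, adjustment over all genes). The 4 spleen libraries, the 6 femoral libraries and all 10 for spleen against femoral were fitted separately, with no covariate. DESeq2 1.42.0 was an alternative. Group means in CPM come from scaling all 10 libraries together. For 2 libraries against 2, the smallest p of an exact permutation test is 0.333. The members, lists and tests were chosen with earlier results of these data known. Named genes were the members, called genes and those with the smallest adjusted p of each list, and the 3 most alike genes per member; not all are given, and some are not reported here. Genes at the top and bottom of lists named as not called were added after their values were seen. On simulated counts with a 4-fold change, the test recovered 94% of changed genes in the SAHA design (13709 genes) and 100% for spleen against femoral (16816 genes). The changed genes were drawn at random, each with its own spread, so these rates are not those of the members. With SAHA, the SE of the log2 fold change was 0.67 for Rn7sk and 0.77 for Gm26917. The spleen pools with the same mouse numbers are paired by their labels. Their deviations from the group means had a correlation of -0.442 over 13913 genes.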

Additional observations from a re-analysis of the deposited data

Results flagged for a closer look

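Gm26917 in LPS_IL4 pool 6_et_8, at 4.48% of counts, stood far from the other 3 spleen libraries (0.791% to 1.05%), its gap to the nearest of them, as a part of the whole range, being above Dixon's critical value. The genes were chosen with these shares in view, so this is a description and no test. Of 12 sets of libraries examined (6 genes in spleen and in femur), 1 was marked, and chance marks about 1 in 20. The value stands without an explanation here.

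The control entry phiX174, outside the main measurement, had 17 counts in LPS_IL4_SAHA pool 6_et_8, above the limit of 3 that a count of 0 allows, against 0 to 7 in the other 9 libraries.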

How the results depend on the processing

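Across 15 alternatives each, Neat1 and Malat1 were called lower in spleen than in femoral libraries. Of 175 recomputed share means, 173 moved by less than the SD of their group. The counts of all called genes moved more. DESeq2 called 949 genes in 2KO against deltaEmu, and 1242 in 2KO against RAG2_deficient. With no filter on low counts the numbers were 145 with SAHA, 1537 for 2KO against deltaEmu, 1971 for 2KO against RAG2_deficient and 3308 for deltaEmu against RAG2_deficient. DESeq2 called 1 of the 6 members, Gm26917, in 2KO against RAG2_deficient and likewise 1 in deltaEmu against RAG2_deficient.

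Leaving out 1 library at a time gave 0 to 2670 called genes with SAHA, 119 to 1587 for 2KO against deltaEmu, 153 to 3222 for 2KO against RAG2_deficient, 259 to 5401 for deltaEmu against RAG2_deficient and 11672 to 13438 for spleen against femoral. Members called were 0 to 4 with SAHA, 0 to 1 for deltaEmu against RAG2_deficient, 2 to 4 for spleen against femoral and 0 in the other comparisons. With SAHA the log2 fold changes then ranged from -0.30 to 1.58 for Rn7sk, -1.98 to 0.35 for Gm26917, -0.43 to 0.0075 for Neat1, -0.28 to 0.94 for Rmrp and -0.17 to 1.24 for Rpph1. For 2KO against deltaEmu the ranges were -0.62 to 0.37 for Rn7sk, -0.077 to 0.43 for Gm26917, -0.24 to 0.033 for Malat1, -0.30 to 0.31 for Rmrp and -0.55 to 0.024 for Rpph1. For 2KO against RAG2_deficient, Rn7sk ran from -1.20 to 0.099, Malat1 from -0.31 to 0.27 and Rmrp from -0.63 to 0.90. For deltaEmu against RAG2_deficient, Rn7sk ran from -1.06 to 0.31, Malat1 from -0.20 to 0.38, Rmrp from -0.61 to 0.93 and Rpph1 from -0.88 to 0.23. For spleen against femoral, Rmrp ran from -0.16 to 0.56 and Rpph1 from -0.26 to 0.55. Where 1 library remained in a group, it was assumed to vary like the other groups, and the cause of these moves was not tested.

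With the mouse numbers as a replicate block the paired fit called 0 genes with SAHA, and so it changed no call. Crossing the pool names, chosen after seeing the data, also gave 0. Leaving out both libraries poor in short genes, likewise chosen later, gave Rn7sk -0.72 (adjusted p = 0.0487) and Gm26917 0.34 (adjusted p = 0.136) in spleen against femoral. With 2 libraries a group, changes near 2-fold were often missed: on simulated counts 7% were recovered with SAHA (13709 genes).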
